A study of Homo sapiens with 6 samples.

Results

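The IL1 family was followed here as 10 genes, chosen by symbol: the ligand genes IL1A, IL1B, IL36G, IL18 and IL33, the antagonist gene IL1RN, the receptor genes IL1R1, IL1R2 and IL1RAP, and CASP1, whose protease matures some of the ligands. The choice was made with earlier results of these data known. All 10 were found among 36887 genes, and 8 of them had enough counts to be tested. RNA was measured in 5637 cells, an established human bladder carcinoma line, 48 h after transfection with siNC, the control siRNA (genotype label WT, 3 samples), or with siYKT6, an siRNA against YKT6 (genotype label YKT6 knockdown, 3 samples). YKT6 encodes a SNARE protein of vesicle fusion, and the RNA was sequenced to look for a mechanism behind its part in bladder tumor growth and spread. All 6 libraries carried the same batch label. The deposited counts added up to between 45205238 and 64982015 per library. The sources used here do not state whether the 3 samples of a group came from separate cultures or whether the siYKT6 samples shared an siRNA sequence, so the p values reflect variation among these samples only. YKT6 itself was at 64.5, 65.3 and 68.2 CPM (the read count scaled to the size of the library) in siNC samples and at 17.7, 19.4 and 17.3 CPM in siYKT6 samples, which fits the labels.

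IL1α and IL1β bind the receptor IL1R1, which then recruits the shared co-receptor IL1RAP and signals through MYD88, IRAK kinases and TRAF6 to NF-κB. The receptor antagonist, product of IL1RN, occupies IL1R1 without signaling, and IL1R2 is a decoy that captures ligand. IL36γ and IL33 use other binding receptors with the same co-receptor, whereas IL18 has a receptor pair of its own. IL1β and IL18 are made as inactive precursors that caspase-1 cleaves, while the IL1α precursor is already active and epithelial cells store it as an alarm signal. Medium conditioned by 5637 cells has long served as a laboratory source of cytokines.

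Every tested member was lower in siYKT6 than in siNC cells. The falls were largest in the ligand genes of the chromosome 2 cluster and in the antagonist gene, and smaller in IL18, IL1R1 and IL1RAP. IL36G fell 2.69-fold, IL1B 2.26-fold, IL1RN 2.07-fold, IL1A 1.86-fold and CASP1 1.73-fold. IL1RAP fell 1.43-fold, and IL18 and IL1R1 fell 1.24-fold each. In such bulk RNA, fewer expressing cells and less RNA per cell cannot be told apart. With the quasi-likelihood test of edgeR (adjusted p under 0.05), 8 of the 8 tested members fell and 0 rose, with a median log2 fold change of -0.84. Over all 21036 genes tested, 16.3% were called lower and 14.6% higher, with a median of 0.0022. Among the 14200 genes with a mean CPM at or above that of IL1RN, the least abundant tested member, 22.0% were called lower. In all 8 members each siYKT6 sample lay below each siNC sample, as it did in 21.5% of all tested genes. A fall of at least 2-fold was called in 0.908% of tested genes, 3 of the 8 members among them. For each member, an exact two-sided permutation test over the samples gave p = 0.1, the smallest that 3 samples against 3 allow.

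**Figure D1:**
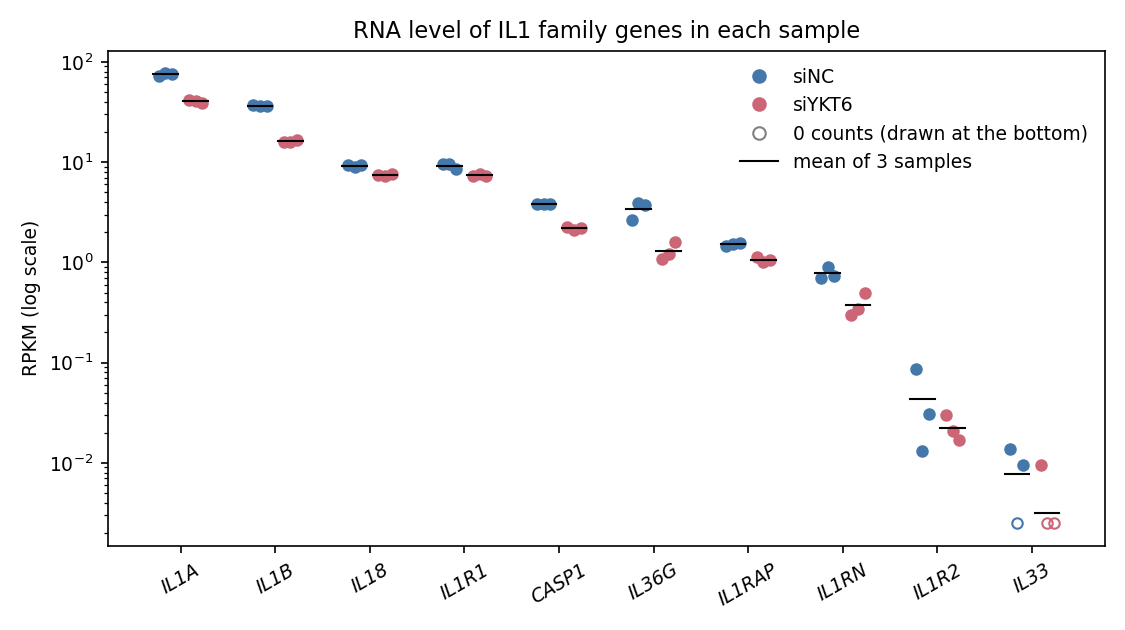
RNA level of each of the 10 genes in each sample, in RPKM (CPM per kilobase of exon) on a log axis, for siNC (blue) and siYKT6 (red), with the mean of 3 samples as a line and samples with 0 counts as open circles at the bottom. The siYKT6 points lie below the siNC points in 8 genes, and those of IL1R2 and IL33 overlap near the bottom of the axis.

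Levels between genes were compared per length, as RPKM, the CPM divided by the exon length in kilobases. IL1A was the most abundant member, with 72.3 to 76.9 RPKM in siNC samples, followed by IL1B with 36.0 to 37.5. IL18 (9.0 to 9.40 RPKM) and IL1R1 (8.54 to 9.54 RPKM) overlapped. CASP1 (3.8 to 3.82 RPKM) fell within the range of IL36G (2.62 to 3.90 RPKM), and IL1RAP (1.44 to 1.57 RPKM) and IL1RN (0.700 to 0.897 RPKM) came next. IL1R2 stayed at or under 0.0873 RPKM and IL33 at or under 0.0138 RPKM. The order of the mean levels was the same in siYKT6 samples, from IL1A at 38.4 to 41.5 RPKM down to IL1RN at 0.302 to 0.489 RPKM. There IL18 (7.24 to 7.63 RPKM) and IL1R1 (7.31 to 7.54 RPKM) overlapped again, and so did IL36G (1.08 to 1.58 RPKM) and IL1RAP (0.998 to 1.13 RPKM).

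Among the agonist ligands, IL1A (chromosome 2 of GRCh38, 112773915 to 112784590, minus strand) was at 153.6, 163.4 and 159.5 CPM in siNC samples and at 88.2, 86.5 and 81.6 CPM in siYKT6 samples. The groups were far apart, and the siYKT6 mean of 85.5 ± 3.40 CPM (SD, n = 3) stood against 158.8 ± 4.91 CPM. The log2 fold change was -0.89 (standard error 0.0379, 95% interval -0.97 to -0.82, adjusted p = 1.5e-13 from edgeR). IL1B (chromosome 2, 112829751 to 112836903, minus strand) was at 116.1, 113.2 and 111.3 CPM in siNC samples and at 49.6, 49.2 and 51.9 CPM in siYKT6 samples. Replicates differed by little in either group, and 44.2% of the siNC level was left. Its log2 fold change was -1.18 (standard error 0.0375, 95% interval -1.25 to -1.10, adjusted p = 1.9e-15 from edgeR).

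IL36G, the gene of an IL1 relative made by stressed epithelia (chromosome 2, 112973203 to 112985665, plus strand), measured 3.62, 5.38 and 5.20 CPM in siNC samples and at 1.49, 1.67 and 2.18 CPM in siYKT6 samples. Replicate 1 was the lowest of the siNC samples and replicate 3 the highest of the siYKT6 samples, and the groups still did not overlap. With 97 to 334 counts per sample its interval was wider than that of IL1B (log2 fold change -1.43, standard error 0.156, 95% interval -1.75 to -1.10, adjusted p = 3.3e-07 from edgeR). IL18 (chromosome 11, 112143251 to 112164117, minus strand) was at 24.4, 23.7 and 24.7 CPM in siNC samples and at 19.6, 19.0 and 20.1 CPM in siYKT6 samples. This smaller fall was also larger than the spread of the replicates (log2 fold change -0.31, standard error 0.0495, 95% interval -0.41 to -0.21, adjusted p = 4.4e-05 from edgeR). The interval of IL18 did not overlap those of IL1A, IL1B and IL36G. IL33, the gene of a nuclear alarmin (chromosome 9, 6215786 to 6257983, plus strand), had 2, 0 and 2 counts in siNC samples and 2, 0 and 0 in siYKT6 samples. No difference in IL33 was detectable at this depth.

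IL1RN, the antagonist gene (chromosome 2, 113107214 to 113134016, plus strand), measured 2.28, 2.92 and 2.38 CPM in siNC samples and at 0.983, 1.11 and 1.59 CPM in siYKT6 samples. It rested on 64 to 153 counts per sample, and siYKT6 replicate 3 came closest to the siNC samples. The log2 fold change was -1.05 (standard error 0.179, 95% interval -1.42 to -0.68, adjusted p = 9.6e-05 from edgeR). The counts do not separate the secreted and intracellular forms that this gene encodes.

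**Figure D2:**
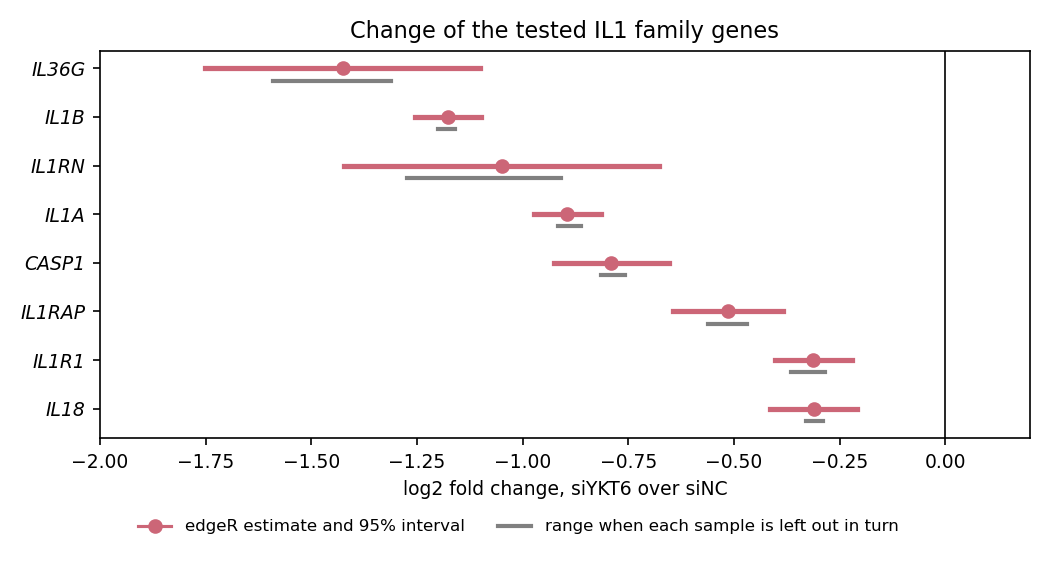
Log2 fold change of siYKT6 over siNC for the 8 tested members, as the edgeR estimate (point) with its 95% interval (red line) and the range when each sample was left out in turn (grey line). All intervals lie below 0, from -1.43 in IL36G to -0.31 in IL18 and IL1R1.

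Antagonist was set against agonist within each sample. The counts were not divided by exon length here (2124 bases for IL1A, 3096 for IL1B and 3256 for IL1RN). The percentages therefore overstate the longer gene and are not relative levels per length. They serve to compare the groups. As a ratio of counts within a sample, which does not depend on scaling, IL1RN was 1.48%, 1.79% and 1.49% of IL1A in siNC samples and 1.11%, 1.28% and 1.95% in siYKT6 samples. Against IL1B it was 1.96%, 2.58% and 2.14% in siNC samples and 1.98%, 2.25% and 3.07% in siYKT6 samples. In both ratios the groups overlapped (exact two-sided permutation test, p = 0.5 and p = 0.6, each 0.6 after adjustment over the 3 ratios). These tests do not show that the ratios were equal. IL1B was 75.5%, 69.3% and 69.8% of IL1A in siNC samples and 56.2%, 56.8% and 63.5% in siYKT6 samples. Each siYKT6 sample was below each siNC sample, with a difference of -0.28 on the log2 scale (p = 0.1 by an exact two-sided permutation test, with no smaller value possible, and 0.3 after adjustment). A ratio of IL1R2 to IL1R1 was not formed because IL1R2 had fewer than 10 counts in 5 of 6 samples.

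**Figure D3:**
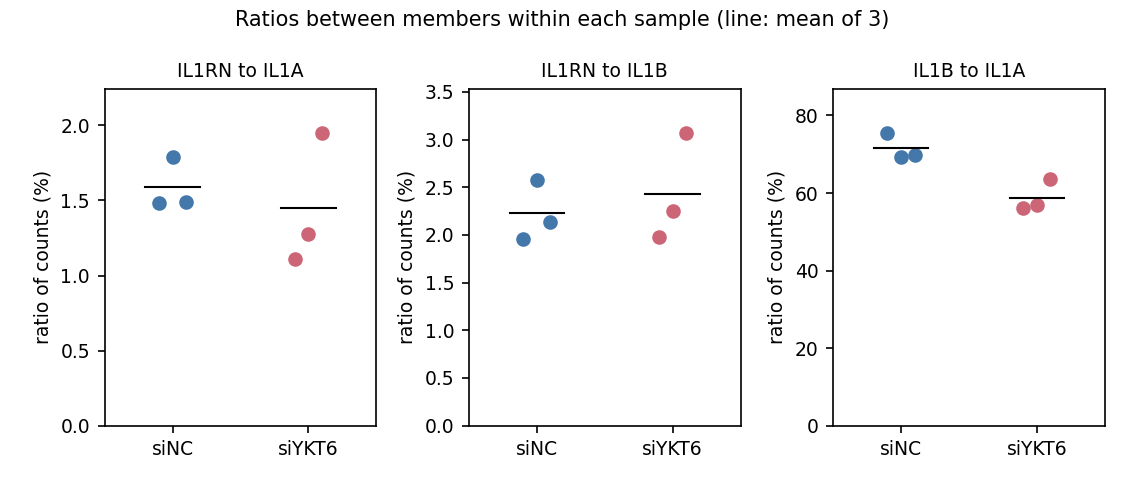
Ratio of the counts of 2 members within each sample, in percent and not corrected for exon length. Values are shown for siNC (blue) and siYKT6 (red), with the mean of 3 samples as a line and each axis starting at 0. The ratio of IL1B to IL1A is lower in all 3 siYKT6 samples (56.2% to 63.5% against 69.3% to 75.5%), and the ratios with IL1RN overlap.

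The tested receptor genes, IL1R1 and IL1RAP, also fell. IL1R1, the signaling receptor (chromosome 2, 102064544 to 102179874, plus strand), measured 67.2, 67.6 and 60.5 CPM in siNC samples and at 51.8, 53.4 and 51.9 CPM in siYKT6 samples. The siNC samples spread more widely here, and replicate 3 lay closest to the siYKT6 samples (log2 fold change -0.31, standard error 0.0438, 95% interval -0.40 to -0.22, adjusted p = 9.3e-06 from edgeR). A gene on the opposite strand, AC007271.3, shared 11 exon bases with IL1R1, 0.155% of its exon length, and no other member shared exon bases with another gene of the table. IL1RAP, the co-receptor (chromosome 3, 190514051 to 190659750, plus strand), measured 16.7, 17.8 and 18.1 CPM in siNC samples and at 13.1, 11.5 and 12.3 CPM in siYKT6 samples. Its fall was intermediate among the members (log2 fold change -0.51, standard error 0.0625, 95% interval -0.64 to -0.38, adjusted p = 1.4e-06 from edgeR). IL1R2, the decoy receptor (chromosome 2, 101991844 to 102028544, plus strand), had 12, 2 and 6 counts in siNC samples and 6, 4 and 3 in siYKT6 samples. These values overlapped and were too few to test.

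CASP1 (chromosome 11, 105025443 to 105035250, minus strand) was at 14.1, 14.1 and 14.1 CPM in siNC samples and at 8.42, 7.77 and 8.22 CPM in siYKT6 samples. The siNC samples were nearly identical and every siYKT6 sample was well below them (log2 fold change -0.79, standard error 0.0654, 95% interval -0.93 to -0.65, adjusted p = 5.5e-09 from edgeR). CASP1 has close copies beside it, CARD16 among them, so reads of the shared sequence could be split between these genes. CARD16 had a log2 fold change of -0.67 and was also called lower (adjusted p = 0.0046 from edgeR).

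Of the 10 members, 4 lie in a single stretch of 360.1 kb on chromosome 2, from 112773915 to 113134016, which holds 14 genes of the table. Only 5 of these were tested. IL1A, IL1B, IL36G and IL1RN fell, and IL36RN, the gene of the IL36 receptor antagonist, had 28 to 38 counts per sample and was not called (log2 fold change -0.45 with a standard error of 0.281, edgeR adjusted p = 0.25). IL37, IL36A, IL36B and IL1F10, the other ligand genes of the stretch, had at most 10 counts in any sample.

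**Figure D4:**
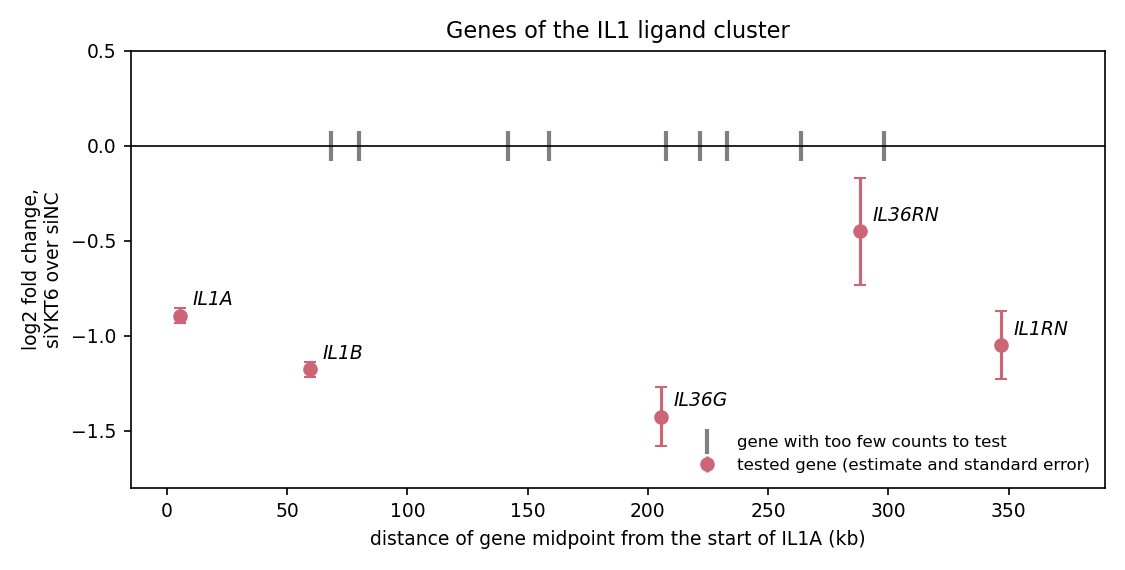
Log2 fold change of siYKT6 over siNC, with its standard error, against the distance of each gene's midpoint from the start of IL1A, in kb, for the 14 genes of the ligand cluster. The 5 tested genes all have estimates below 0, that of IL36RN with an error bar of 0.281, and the 9 grey ticks mark genes with too few counts.

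The sequences upstream of a RefSeq start of the 4 members in this stretch are shown because all 4 were called lower. Each is the 250 bases before the 5′-most RefSeq start in the table used (GRCh38.p14), 5′ to 3′ on the gene's strand. Capitals mark matches to any of 4 motifs, each searched on both strands. They are TGANTCA (bound by AP-1), a form of the kappaB motif (bound by NF-κB), TTCNNNGAA (bound by STAT factors) and TATAAA. The kappaB form searched was GGG and TTCC with 3 bases of any kind between them, and other forms were not searched. The windows are chr2:112784494-112784743 (minus) for IL1A, chr2:112836780-112837029 (minus) for IL1B, chr2:112977756-112978005 (plus) for IL36G and chr2:113117721-113117970 (plus) for IL1RN. The gene spans of the count table reach further 5′ than these starts, so the windows of IL36G and IL1RN lie wholly, and those of IL1A and IL1B partly, inside the spans given above. Which start the cells used was not measured.
IL1A: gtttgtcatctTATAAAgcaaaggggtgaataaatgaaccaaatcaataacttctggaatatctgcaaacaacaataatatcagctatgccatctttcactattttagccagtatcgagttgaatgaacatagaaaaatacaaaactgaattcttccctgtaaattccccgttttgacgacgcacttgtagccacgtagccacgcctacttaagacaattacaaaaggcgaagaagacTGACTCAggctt
IL1B: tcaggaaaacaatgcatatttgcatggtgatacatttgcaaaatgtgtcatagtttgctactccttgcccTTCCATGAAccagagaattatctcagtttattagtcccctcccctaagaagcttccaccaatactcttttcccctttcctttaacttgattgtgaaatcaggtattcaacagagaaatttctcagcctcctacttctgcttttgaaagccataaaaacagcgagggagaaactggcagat
IL36G: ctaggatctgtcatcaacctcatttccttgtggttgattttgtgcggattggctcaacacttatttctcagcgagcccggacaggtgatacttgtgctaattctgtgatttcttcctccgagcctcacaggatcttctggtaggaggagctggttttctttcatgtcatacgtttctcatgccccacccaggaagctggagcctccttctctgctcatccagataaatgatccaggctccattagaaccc
IL1RN: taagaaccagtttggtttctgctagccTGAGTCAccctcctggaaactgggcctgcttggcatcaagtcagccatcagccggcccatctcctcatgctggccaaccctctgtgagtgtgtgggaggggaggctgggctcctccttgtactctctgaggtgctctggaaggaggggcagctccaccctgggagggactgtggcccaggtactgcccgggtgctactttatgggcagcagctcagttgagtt

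IL1A held TGANTCA beginning 12 bases before its start and TATAAA beginning 239 bases before it. IL1RN held TGANTCA beginning 223 bases before its start, and IL1B held TTCNNNGAA beginning 180 bases before its start. No motif of the 4 was shared by all 4 windows, and IL36G held none. Of 34943 promoter windows of the same length, 6.59% held TGANTCA, 5.67% the searched form of the kappaB motif, 6.56% TTCNNNGAA and 10.8% TATAAA. RefSeq lists 2 starts for IL1A and 3 for IL1RN, and only the 5′-most was searched. Across the members, 8 had a window in the table. A match is a description of letters and was not linked to the change in RNA.

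The rest of the pathway, taken from lists of known genes, moved in both directions. Members and lists were drawn with earlier results of these data known, so the contrast between them is not independent of that choice. The calls in each list stand beside 16.3% lower and 14.6% higher over all tested genes. No test compared a list with these shares. Of 7 tested receptors and binding proteins of the wider family, 1 fell, 2 rose and 4 were not called, with a median log2 fold change of -0.17. IL18R1, the binding receptor of IL18, fell by 0.43 on the log2 scale. SIGIRR, which encodes a receptor that restrains IL1 signaling, had a log2 fold change of 0.84, and IL18BP, the gene of a secreted trap for IL18, one of 0.29.

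Among 21 tested genes of inflammasomes, ligand processing and release, 6 fell, 3 rose and 12 did not pass, with a median of -0.067. CASP4, the gene of an inflammatory caspase that senses lipopolysaccharide, fell by 0.50 on the log2 scale. AIM2, a cytosolic DNA sensor gene, fell by 0.72 and TXNIP, which encodes a thioredoxin-binding protein, by 0.32. MEFV, the gene of pyrin, fell by 1.68 (standard error 0.358), at low means of 0.678 CPM in siNC and 0.21 CPM in siYKT6 samples. NEK7, a kinase that licenses NLRP3, had a log2 fold change of 0.31. The apoptotic caspase gene CASP8 had one of 0.22 and NINJ1, which acts in membrane rupture, one of 0.28. NLRP3 itself was at means of only 0.217 CPM in siNC and 0.189 CPM in siYKT6 samples and was not called.

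Of 22 tested signaling genes downstream of the receptor, 8 fell, 6 rose and 8 did not pass, with a median of 0.0093. Among the proximal genes, MYD88, IRAK1 and IRAK2 fell by 0.32, 0.31 and 0.40 on the log2 scale, and IRAK4 and TRAF6 were not called. IRAK3, at a mean of 0.702 CPM in siNC samples, fell by 1.27 and the adaptor gene TAB2 by 0.25. The kinase gene MAP3K3 rose by 0.34, TOLLIP, the gene of an inhibitor of IRAK1, by 0.43, SQSTM1 by 0.15 and TAB3 by 0.11.

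Of 30 tested genes that IL1 induces in many cells, 15 fell, 5 rose and 10 did not pass, with a median of -0.11. The cytokine gene LIF fell by 0.79 on the log2 scale, PTGS2, the gene of cyclooxygenase 2, by 0.59, the chemokine gene CXCL8 by 0.46 and ZC3H12A, which encodes an RNase that degrades cytokine mRNA, by 0.51. Against them, IL6 had a log2 fold change of 1.99, the apoptosis inhibitor gene BIRC3 one of 0.36, the chemokine gene CXCL5 one of 0.25 and the growth factor gene CSF1 one of 0.37.

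**Figure D5:**
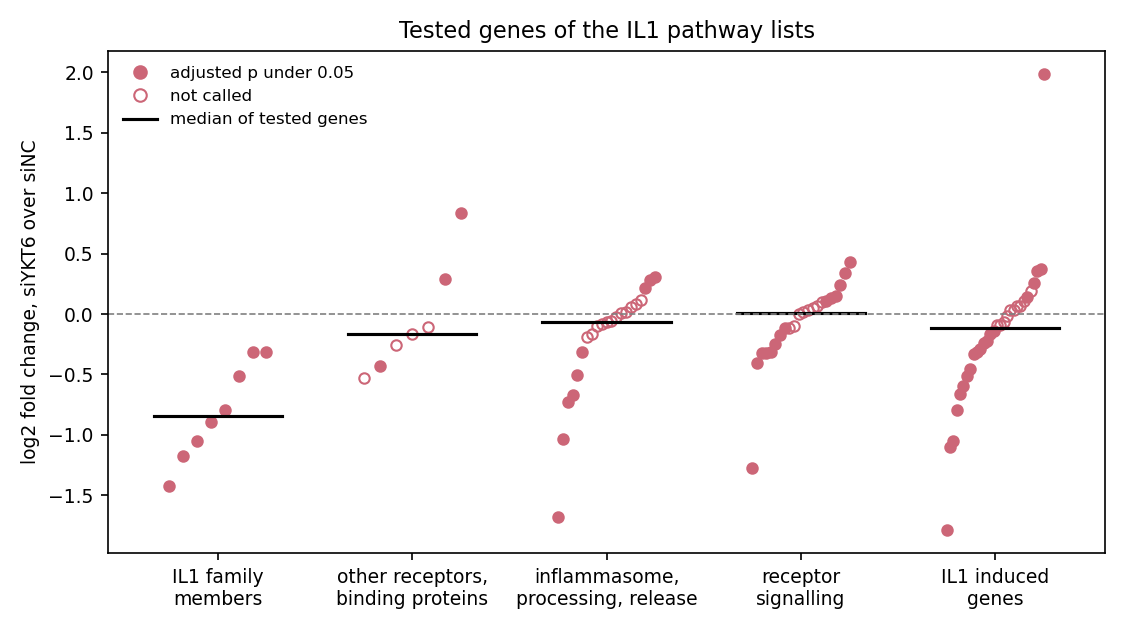
Log2 fold change of siYKT6 over siNC for each tested gene of the members and of 4 pathway lists (filled, adjusted p under 0.05; open, not called; line, median). All 8 members lie below 0 with a median of -0.84, and the other lists spread to both sides with medians from -0.17 to 0.0093. Members and lists were drawn with earlier results of these data known.

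Other measured features changed beside the members, in both directions. Of 12 epithelial markers, 6 fell, 2 rose and 4 did not pass, against 16.3% lower and 14.6% higher over all tested genes. Their summed level was 5952 to 6112 CPM in siNC and 3904 to 4150 CPM in siYKT6 samples. That sum is weighted by the most abundant genes. Mean KRT17 was 1451 CPM in siNC and 523.7 CPM in siYKT6 samples, and mean KRT5 853.5 and 387.4 CPM. KRT5, KRT17, TP63, KRT19, KRT8 and CDH1 fell by 1.14, 1.47, 0.95, 0.56, 0.38 and 0.22 on the log2 scale. EPCAM and CLDN4 rose by 0.17 and 0.50 on that scale, and KRT7, KRT18, GATA3 and TFAP2A were not called. Of 10 leukocyte markers, 9 had a mean under 1 CPM and 3 were tested, of which 1 (CD68) was lower. Their summed level was 5.38 to 5.94 CPM in siNC and 4.16 to 5.16 CPM in siYKT6 samples, and PTPRC, which defines leukocytes, was at most at 0.123 CPM. The 6 endothelial markers summed to 0.981 to 1.57 and 1.63 to 1.77 CPM and the 9 fibroblast markers to 38.1 to 39.3 and 42.3 to 45.2 CPM. All 6 endothelial markers had a mean under 1 CPM. Of these, 3 were tested and only VWF was called, as higher (log2 fold change 1.01). Of the fibroblast markers 7 were tested and only COL1A1 was called, as higher (0.26). The word CTCTACA was found in an earlier look at these libraries to go with lower values. Its shares here come from the same samples and are not independent of that look. An annotated 3′ UTR of 2221 tested genes held it, of which 32.8% were called lower and 14.5% higher. Of 11080 genes with a 3′ UTR that lacks it, 18.7% were lower and 18.8% higher. For 7735 tested genes no 3′ UTR was matched, and 7.96% of them were lower. Among the 10 members the word was in the 3′ UTR of IL1RAP alone. The part of these features in the falls of the members was not tested.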

How the data were processed

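RNA from 3 siNC and 3 siYKT6 samples of 5637 cells was made into stranded mRNA libraries. The authors cleaned the reads with fastp 0.23.0. After alignment to GRCh38, they ran featureCounts (Subread 1.5.1) to count reads over the exons of each gene. The deposited values are these raw counts per gene, with an exon length beside each. Not given in the sources used here are the aligner, the strand setting and the handling of read pairs and shared reads. Of small counts (1 to 20), 68.8% to 70.0% per library were even.

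Counts were fitted over all genes in R 4.3.3 with edgeR 4.0.16 (TMM scaling, quasi-likelihood test). The filter filterByExpr left 21036 of 36887 genes. P values were adjusted by the Benjamini-Hochberg method over all of them, at a threshold of 0.05, and fold changes are siYKT6 over siNC. CPM and RPKM use the TMM-scaled library size. Intervals are 95% intervals from the fit. The code was tested on simulated data.

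Members and lists were chosen with earlier results of these data known. Named genes are all members, YKT6 and, per pathway list, in each direction, up to 4 called genes of smallest p. CARD16, NLRP3, IRAK3, IRAK4, TRAF6, the markers named and the genes of the closing observations were added after their values were seen. CARD18 and GSDME were not analysed here. Alternatives were DESeq2 1.42.0, limma 3.58.1 (voom), other scalings and filters, the replicate number as a block, halved counts and each sample left out. 3′ UTRs came from GENCODE.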

Additional observations from a re-analysis of the deposited data

How the results depend on the processing

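All 8 tested members were called lower, and none higher, with DESeq2's size factors, upper quartile scaling, limma-voom, the DESeq2 test, no filter, halved counts, the replicate block and each sample left out in turn. With at least 1 CPM required in every sample, IL1RN was not tested and the other 7 were called lower. The 111 values of the members under these 14 settings all kept their direction and their call. Leaving out each sample in turn moved the log2 fold change of IL1RN between -1.27 and -0.91, that of IL36G between -1.59 and -1.31 and that of IL1B between -1.20 and -1.16. The highest adjusted p of these 8 members was 0.001 (edgeR, IL1RN without siYKT6 replicate 1). No pairing of the samples by replicate number was seen (correlation of the deviations of same-numbered samples -0.000919, -0.0369 and 0.0149 across 15837 genes). With 3 samples per group, a weak pairing could be missed. With the replicate block 3312 genes were lower and 2958 higher, against 3419 and 3066 without it. Of the wider receptor list, 1 gene and not 2 was called higher under that same minimum of 1 CPM, which left SIGIRR untested. Without a filter, IL1R2 and IL33 had adjusted p of 0.57 and 0.77 from edgeR. Depth limits IL33, IL1R2 and the other ligand genes of the cluster, which had 12 counts or fewer per sample or, for IL36RN, at most 38. RNA alone was measured, so cytokine protein and release were not.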

Other observations

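Within the siYKT6 group, replicate 3 had the highest CPM of the 3 samples in IL1RN (1.59), IL36G (2.18), IL1B (51.9) and IL18 (20.1) and the lowest in IL1A (81.6). In the siNC group replicate 1 had the lowest values of IL1RN (2.28) and IL36G (3.62) and the highest of IL1B (116.1). The cytokine genes CCL20, CSF2 and CSF3, also in the list of genes that IL1 induces, were called lower in siYKT6 cells by edgeR (log2 fold changes -1.05, -1.10 and -0.66). CSF2 was at a low mean of 0.917 CPM in siNC samples. Of other cytokine genes there, LIF was called lower (-0.79), IL6 and CSF1 were called higher (1.99 and 0.37) and TNF was not called (0.069). Of the other CXCL genes of that list, which lie near CXCL8 on chromosome 4, CXCL1, CXCL2 and CXCL3 were called lower (-0.33, -0.29 and -0.24), CXCL5 was called higher (0.25) and CXCL6 was not called (0.19).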
